A study of Homo sapiens with 47 samples.

Results

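The transportins TNPO1, TNPO2 and TNPO3 were followed in bulk RNA sequencing of human cells that carry mutations in NUP58, the gene of a nucleoporin that lines the central channel of the nuclear pore complex. The 3 members were found by gene symbol among the 57507 genes of the expression table, and each symbol matched 1 gene. Their levels are given as FPKM, the number of fragments scaled to transcript length and library size, so levels of different genes can be set side by side per length. HAP1, a near-haploid line from a chronic myeloid leukemia, was sequenced as 32 libraries, with 4 for each of 8 lines: the unedited parent (WT), a control given Cas9 but no guide RNA (EV), and 6 mutants with the genotype NUP58 mutated (C1 to C6). HCT116, a near-diploid colorectal carcinoma line, was sequenced as 15 libraries, 4 of them labelled as a NUP58 mutated clone and 11 as unedited controls. The unedited HCT116 libraries were 2 of WT, 3 of EV1, 4 of EV2 and 2 further ones whose title and genotype disagree on whether they are WT or EV, all EV cells having received Cas9 without a guide RNA. Each mutant line was grown from a single edited cell and profiled at an early passage, so a clone is 1 line and its 4 libraries are repeats of that line. The p-values below therefore measure only the spread between these libraries. In bulk RNA, a change in how many cells express a gene and a change in RNA per cell cannot be told apart.

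Transportins belong to the karyopherin β family, large ring-shaped receptors that carry proteins through the nuclear pore by touching its FG-repeat nucleoporins, NUP58 among them. TNPO1, also called karyopherin β2 or transportin 1, binds the PY nuclear localization signal of RNA-binding proteins such as hnRNP A1 and releases them in the nucleus when it meets RAN bound to GTP. TNPO2 is its close paralog and carries many of the same cargoes. TNPO3, or transportin-SR, is a more distant relative that imports SR splicing factors and CPSF6.

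TNPO1 (ENSG00000083312.17) lies on the plus strand of chromosome 5 from 72816312 to 72916733 (GRCh38). Its canonical transcript, ENST00000337273.10 in GENCODE release 44, has 25 exons and a coding sequence of 2694 bases. TNPO2 (ENSG00000105576.15) lies on the minus strand of chromosome 19 from 12699201 to 12724011, and its transcript ENST00000425528.6 has 26 exons and 2691 coding bases. TNPO3 (ENSG00000064419.13) lies on the minus strand of chromosome 7 from 128954180 to 129055173, and its transcript ENST00000265388.10 has 23 exons and 2769 coding bases. The coding sequences of TNPO1 and TNPO2 were identical at 73.2% of 2661 aligned bases. TNPO3 matched TNPO1 at 60.9% of 2395 aligned bases and TNPO2 at 60.8% of 2374. The longest run that TNPO3 shared with either was 11 bases.

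The levels of TNPO1 and TNPO2 are compared throughout, so the stretch in which a read could most easily be given to the wrong paralog is shown. It is the gap-free window of 100 coding bases with the fewest differences between them, read 5′ to 3′ on the coding strand, with capitals at the positions that differ.
TNPO1 (chr5:72888171-72888270, plus strand, exon 13): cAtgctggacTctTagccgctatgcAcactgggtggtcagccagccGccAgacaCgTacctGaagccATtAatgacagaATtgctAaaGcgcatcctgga
TNPO2 (chr19:12706603-12706702, minus strand, exon 14): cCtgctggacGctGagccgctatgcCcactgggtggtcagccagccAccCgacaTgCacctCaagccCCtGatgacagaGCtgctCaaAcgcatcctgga
Even in this window, 16 of the 100 positions differed. The longest run shared by the coding sequences was 20 bases, and no word of 31 bases occurred in the transcripts of both genes. The processed pseudogenes TNPO1P1, TNPO1P2 and TNPO1P3 share runs of up to 96 bases with the TNPO1 transcript. Their highest level in any of the 47 libraries was 0.354 FPKM, for TNPO1P1 in a WT library, and that of the others was under 0.1 FPKM. Genes that overlap a member reached at most 1.01 FPKM (the antisense transcript TNPO1-DT).

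All 3 transportins were expressed in every library. In HAP1 WT, TNPO2 averaged 64.8 ± 13.02 FPKM, TNPO1 53.1 ± 10.14 and TNPO3 43.99 ± 3.77 (SD, n = 4 each). Among 20 genes of the karyopherin β family, ordered by mean level in WT, TNPO2 stood at place 8, TNPO1 at place 9 and TNPO3 at place 11. The top of that order was KPNB1, the importin β that works with importin α, at 239 ± 73.7 FPKM (SD, n = 4). The transportins thus stood in the middle of their family in these cells.

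As a check of the labels, NUP58 itself had 41.3 ± 8.07 FPKM in WT, 40.3 ± 4.57 in EV (SD, n = 4 each) and 14.9 ± 5.92 over the clones (SD, n = 24), and all 24 clone libraries lay below the lowest WT library. Depth differed little: relative to WT replicate 1, and estimated from the lowest values, HAP1 libraries had 0.749 to 1.16 and HCT116 libraries 0.761 to 0.981. EPCAM, an epithelial surface protein, ran from 102 to 272 FPKM in HCT116 and from 0.181 to 16.7 in HAP1, where C5 alone had 10.5 to 16.7 and every other library at most 1.26, whereas CDX1, an intestinal factor, was at or near 0 in every library of both lines. ABL1 and BCR, the partners of the leukemia fusion that HAP1 derives from, were expressed in both lines, and gene totals do not show a fusion.

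TNPO1 was higher in the NUP58 mutant clones than in WT. Its 4 WT libraries had 47.9, 42.7, 66.0 and 55.7 FPKM in the order of replicates 1 to 4, and the EV libraries 46.6, 45.3, 52.5 and 52.3. The 24 clone libraries ran from 52.3 to 104 FPKM with a median of 74.1. Of these, 22 lay above the WT mean and 18 above the highest WT library, so the groups overlapped only at the low end of the clones. Averaged over the 6 clones, the log2 fold change against WT was 0.51 (standard error 0.141, 95% confidence interval 0.22 to 0.80, adjusted p = 0.0241 from limma), a ratio of means of 1.44. The same contrast with EV as control gave 0.61 (limma, adjusted p = 0.00648, standard error 0.141). All 24 clone libraries exceeded the EV mean.

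TNPO2 moved by a similar amount. The WT libraries had 56.4, 51.2, 78.2 and 73.3 FPKM and the EV libraries 62.8, 57.0, 78.8 and 85.3. The clones ran from 65.7 to 120.5 FPKM with a median of 89.8, all 24 above the WT mean and 17 above the highest WT library. The log2 fold change against WT was 0.48 (standard error 0.124, 95% confidence interval 0.23 to 0.74, adjusted p = 0.0145 from limma), a ratio of means of 1.404. Against EV, whose mean of 71.0 ± 13.3 FPKM (SD, n = 4) lay above that of WT, it was 0.35 (standard error 0.124, 95% confidence interval 0.10 to 0.61) and did not pass the correction (adjusted p = 0.0751 from limma). It passed when C1 replicate 2 or C2 replicate 2 was left out (0.37 in each case, adjusted p = 0.0443 and 0.0468 from limma). In the other 30 of the 32 fits without 1 library it stayed uncalled. Over the 32 fits the log2 fold change ran from 0.26 to 0.45, with an adjusted p of up to 0.314 from limma.

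TNPO3 stayed near its WT level. The WT libraries had 39.4, 45.1, 48.4 and 43.1 FPKM, and the clones ran from 37.1 to 53.9 with a median of 44.7, which spans the whole WT range. The log2 fold change over the 6 clones was 0.02 against WT (standard error 0.0686, adjusted p = 0.932 from limma) and 0.07 against EV (adjusted p = 0.613 from limma). The 95% confidence interval against WT, -0.12 to 0.16, lay below the estimates for both of its relatives.

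Thus 2 of the 3 members were called higher against WT, where 3.17% of the 13180 genes tested were called higher at an adjusted p under 0.05. Against EV it was 1 of 3, beside 4.18% of all genes. WT and EV themselves did not differ in any member (log2 differences of -0.09 for TNPO1, 0.13 for TNPO2 and -0.05 for TNPO3, adjusted p = 0.9995 for each, limma), and 0.038% of all genes were called between these controls. The calls against WT rested on few control libraries. Without WT replicate 2, which had the least of either gene in WT, the log2 fold changes were 0.42 for TNPO1 (adjusted p = 0.126 from limma) and 0.38 for TNPO2 (0.103). When replicate 1 of WT was left out instead, TNPO1 had an adjusted p of 0.105 and TNPO2 one of 0.0901. Leaving out replicate 4 of WT gave TNPO1 one of 0.0589. Leaving out clone C6 gave TNPO1 an adjusted p of 0.0537, and leaving out C5 gave TNPO2 one of 0.0609 (limma).

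Same-numbered libraries of different lines tended to move together, and fits with the replicate number as a block were therefore run as well. In the blocked fit, TNPO2 passed against EV too (log2 fold change 0.35, adjusted p = 0.00203 from limma), while the calls over all genes went from 1116 to 2196. TNPO1 and TNPO2 stayed called against WT (adjusted p = 0.00164 and 8.31e-05). They also stayed called in the blocked fit without WT replicate 2, an alternative chosen after seeing the data (0.50 with adjusted p = 0.0116, and 0.47 with 0.00142, from limma).

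**Figure D1:**
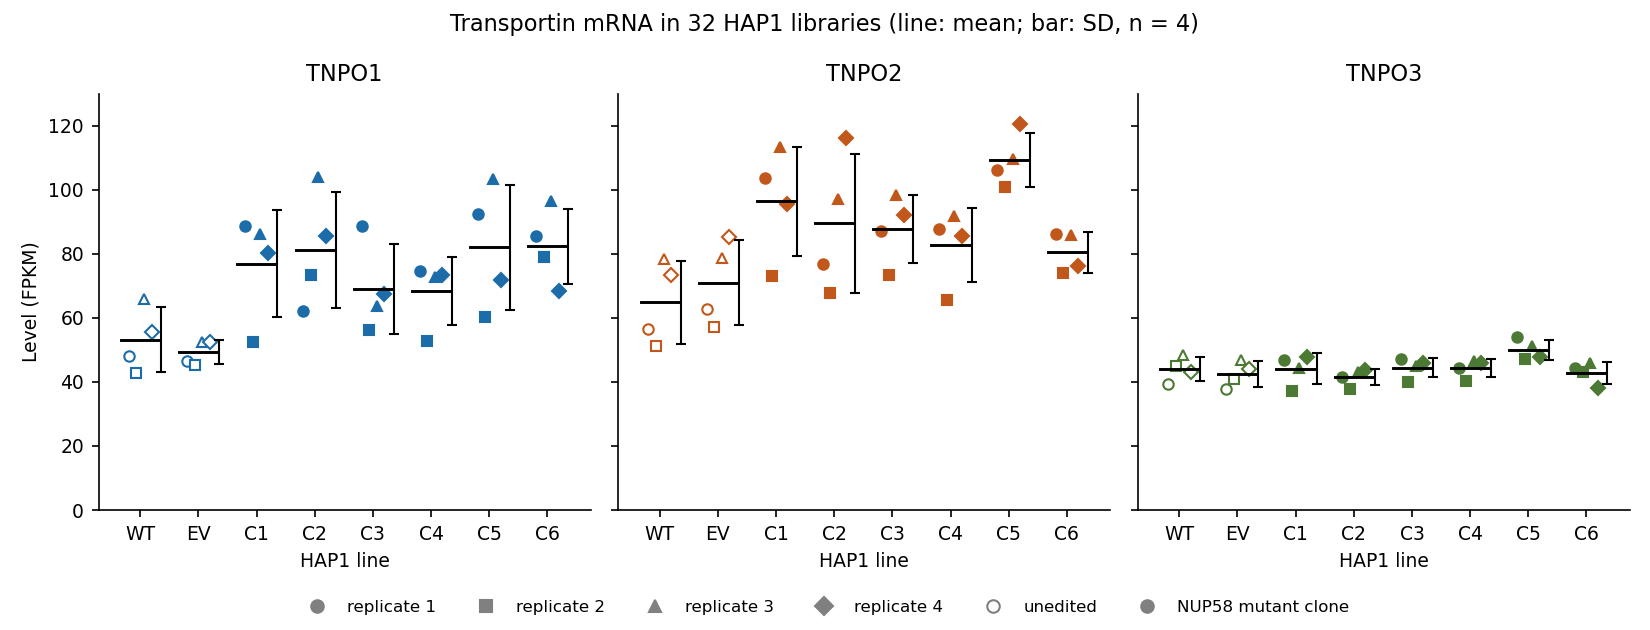
Levels (FPKM, y axis) of TNPO1, TNPO2 and TNPO3 in the 32 HAP1 libraries by line (x axis). Open symbols are unedited lines, filled symbols NUP58 mutant clones, symbol shapes replicate numbers, lines means and bars SD (n = 4). TNPO1 and TNPO2 sit higher in the clones with overlap, and TNPO3 stays between 37.1 and 53.9 FPKM. Replicate 2 lies below the line mean for TNPO1 and TNPO2 in all 8 lines, only slightly so for TNPO1 in C6.

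Each clone was then compared with WT on its own. For TNPO1 the means were 68.4 ± 10.5 FPKM in C4 and 68.9 ± 14.0 in C3 at the low end, 76.9 ± 16.8 for C1, and 81.2 ± 18.0 for C2, 81.9 ± 19.5 for C5 and 82.4 ± 11.7 for C6 at the high end (SD, n = 4 each). C6 had 85.7, 79.1, 96.3 and 68.4 FPKM, all above the WT libraries, and was the only clone in which TNPO1 passed the correction (log2 fold change 0.63, standard error 0.152, adjusted p = 0.0249 from limma). In the other clones the log2 fold change ran from 0.36 in C4 to 0.60 in C5, with adjusted p-values from 0.0854 in C5 to 0.9995 in C3 (limma). The call in C6 was lost when any of 5 libraries was left out, namely WT replicates 1 and 4 and C6 replicates 1, 2 and 3, and the adjusted p was then 0.0563 to 0.0746 (limma). Conversely, TNPO1 in C5 passed without C5 replicate 2, its lowest library there (0.74, adjusted p = 0.0370 from limma). In C6 the 10 other genes tested within 1 Mb of TNPO1 had a median log2 difference from WT of 0.28. Of these, 2 were called in either direction, beside 1561 of all 13371 genes tested in C6. Chromosome 5 as a whole had a median of 0.17 in C6, and the part of either in the TNPO1 value was not tested. In the other 5 clones the median of these neighbours lay between -0.06 and 0.10.

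For TNPO2 the means were 80.5 ± 6.40 FPKM in C6 and 82.7 ± 11.6 in C4, 87.7 ± 10.7 for C3 and 89.5 ± 21.6 for C2, and 96.3 ± 17.1 for C1 and 109 ± 8.39 for C5 (SD, n = 4 each). C5 stood highest, with 106, 100.7, 109.5 and 120.5 FPKM against a highest WT library of 78.2, and was the only clone called (log2 fold change 0.76, standard error 0.143, adjusted p = 0.0114 from limma). This call held without any single library. C5 is also the HAP1 line that stood apart in EPCAM, and the part of that in the result was not tested. In the other clones the log2 fold change ran from 0.33 in C6 to 0.57 in C1, with adjusted p-values from 0.179 in C6 to 0.834 in C3 (limma). The 42 genes tested within 1 Mb of TNPO2 had a median of 0.10 in C5. Of these, 3 were called in either direction, beside 994 of all 13164 genes tested in C5.

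For TNPO3 the clone means lay between 41.6 ± 2.60 FPKM in C2 and 50.1 ± 3.14 in C5 (SD, n = 4 each). None of the 6 comparisons passed, the largest difference being 0.18 in C5 (standard error 0.1002, adjusted p = 0.306 from limma).

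Of the 18 pairs of a clone and a member, 2 were called by limma, TNPO1 in C6 and TNPO2 in C5, and 9 had an unadjusted p under 0.05. The share of all tested genes called higher was 0.0379% in C3, 0.0914% in C4, 0.289% in C1 and 0.343% in C2, but 3.28% in C5 and 6.28% in C6. The called pairs thus fell in the clones with the largest number of calls over all genes. In exact two-sided permutation tests of 4 libraries against 4, the same 2 pairs had p = 0.0286, the smallest that 70 arrangements allow, and the other 16 had p of 0.0571 or more. With the replicate block, 6 pairs were called: TNPO1 in C2, C5 and C6, and TNPO2 in C1, C3 and C5. The calls over all genes in that fit went from 12 to 82 in C3 and from 994 to 2147 in C5, but from 1561 to 1312 in C6. In an unmoderated test with unequal variances, none was called, and the adjusted p was 0.105 for each of the 2 pairs.

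**Figure D2:**
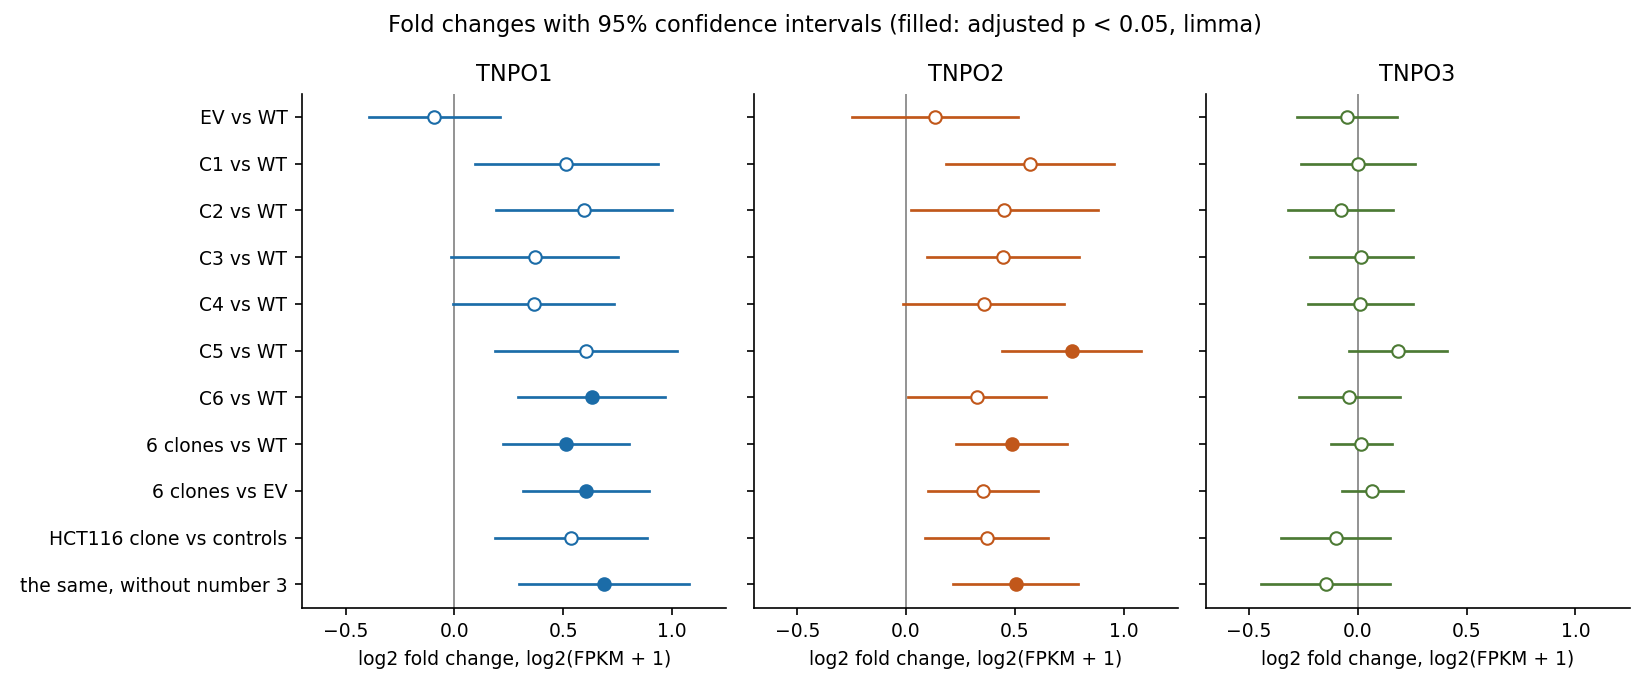
Log2 fold changes (x axis, on log2(FPKM + 1)) of the 3 transportins with 95% confidence intervals from limma, for each comparison (y axis). Filled points have an adjusted p under 0.05. TNPO1 and TNPO2 lie right of 0 in every clone and in HCT116, most of them as open points, and the intervals of TNPO3 all cross 0.

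The order of the 8 HAP1 lines differed between the members. By mean FPKM it was C6, C5, C2, C1, C3, C4, WT and EV for TNPO1, and C5, C1, C2, C3, C4, C6, EV and WT for TNPO2. For TNPO3 it was C5, C3, C4, C1, WT, C6, EV and C2, with the controls among the clones. None of the 21 neighbouring pairs in these orders passed the correction (exact two-sided permutation test, 4 libraries each). The lowest p was 0.0286, for TNPO3 in C5 against C3 (adjusted p = 0.6, exact permutation test). The 70 arrangements allow no smaller p, so a single pair could not pass over 21 pairs. The pairs were also neighbours in an order sorted on the same means, so this outcome does not show that the lines are alike. Only 2 of the 21 differences were larger than the larger SD of the pair: TNPO1 between C4 and WT, and TNPO3 between C5 and C3. Over the 6 clones together, the range of line means was 0.27 on the log2 scale for TNPO1, 0.44 for TNPO2 and 0.26 for TNPO3. The adjusted p was 0.780, 0.321 and 0.307 in limma's moderated F test, so no member was called while 15.8% of all genes were. In the blocked fit TNPO2 passed this test (adjusted p = 0.0117 from limma), beside 25.9% of all genes. With the level of ASNS as a covariate all 3 did (0.0365, 0.000457 and 0.0385), beside 28.1% of all genes. The call of a difference between clones thus changed with how the shared movement of replicates was treated.

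Most differences between neighbouring lines in the orders above were smaller than the spread within lines. The pooled SD within lines was 0.27 on the log2 scale for TNPO1, 0.24 for TNPO2 and 0.12 for TNPO3. For TNPO1 and TNPO2 it was below the log2 fold change of every single clone against WT. Those ran from 0.36 to 0.63 for TNPO1 and from 0.33 to 0.76 for TNPO2. In all 8 lines, replicate 2 lay below the line mean for TNPO1 and TNPO2, by 0.27 on average for each. In all 8 lines, replicate 3 lay above the line mean for TNPO2 and TNPO3. ASNS, the asparagine synthetase gene that cells induce when amino acids run short, moved the other way: in replicate 2 it was above the line mean in 8 of 8 lines, by 1.38 on the log2 scale on average, and in replicate 3 below it in all 8. Across the 32 libraries, the deviations from the line means gave Pearson's r of 0.678 (Spearman's rho 0.618) between TNPO1 and TNPO2. The r was 0.743 (rho 0.744) between TNPO1 and TNPO3, and 0.663 (rho 0.595) between TNPO2 and TNPO3. With ASNS, r was -0.774 for TNPO1 (rho -0.731), -0.890 for TNPO2 (rho -0.823) and -0.790 for TNPO3 (rho -0.754). These are 6 relations, each with an adjusted p of 0.00257 or less for r and rho in a permutation test within lines. Because libraries of the same number moved together, they are not 32 independent samples and these p-values are too small. Without the 2 libraries farthest from the median, the 6 values of r kept their signs (0.637, 0.672, 0.624, -0.702, -0.868 and -0.731). With the mean of each replicate number removed as well, a paired form of the same measure chosen after seeing the data, r was 0.392, 0.588 and 0.467 between the members and -0.646, -0.629 and -0.758 with ASNS. ASNS did not separate the clones from WT (log2 difference -0.08, adjusted p = 0.961 from limma), and with ASNS as a covariate the log2 fold changes over the 6 clones were 0.50 for TNPO1 and 0.47 for TNPO2.

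**Figure D3:**
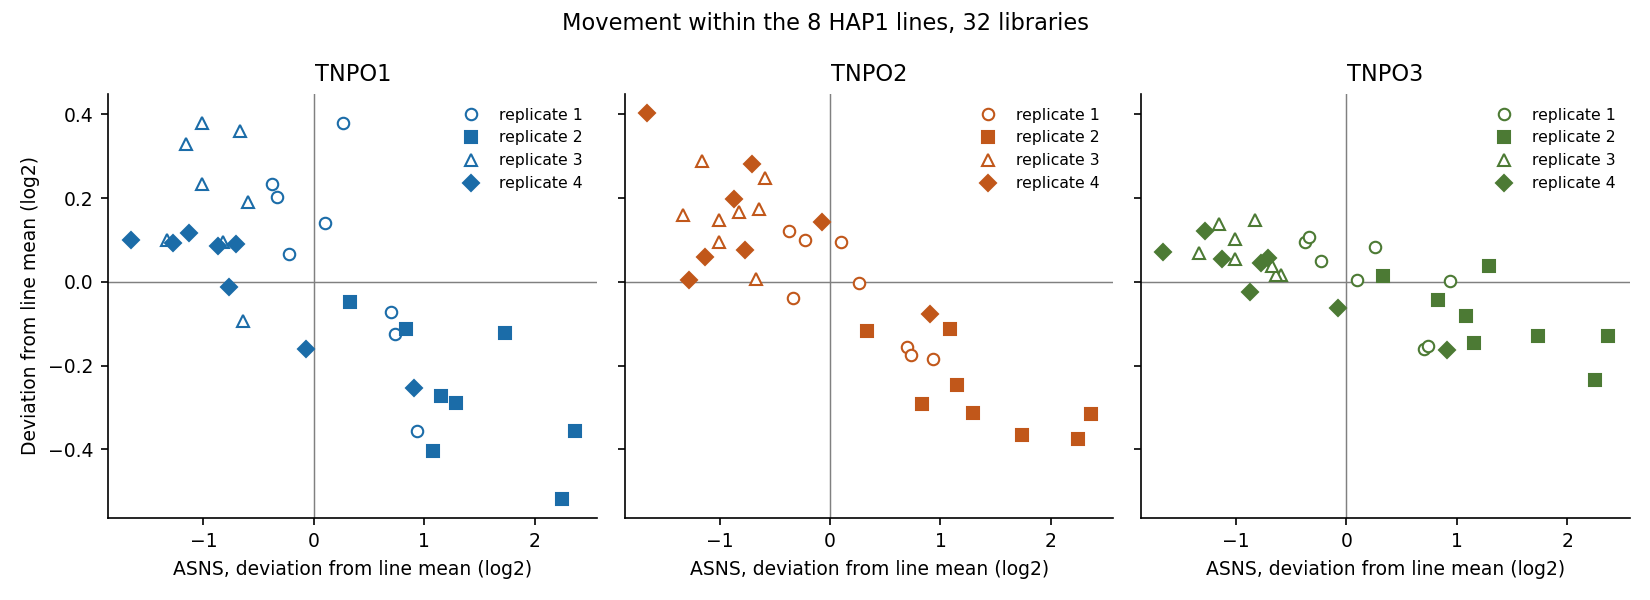
Deviation of each transportin from the mean of its HAP1 line (y axis, log2) against that of ASNS (x axis, log2) in 32 libraries, with replicate numbers as symbols. Replicate 2 sits at the lower right for TNPO1 and TNPO2 and replicate 3 at the left in each panel, and r is -0.774, -0.890 and -0.790 from left to right.

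In HCT116, 2 of the 3 libraries numbered 3 went against their labels. NUP58 had 44.7 FPKM in the library labelled clone replicate 3, within the controls, and 24.0 in the library labelled EV2 replicate 3, among the other clone libraries at 23.3 to 25.3. The third, labelled EV1 replicate 3, had 46.5 FPKM, as other controls did. The comparisons that use HCT116 are therefore given with and without all 3 libraries of that number. TNPO1 had 78.2, 71.6, 55.3 and 72.1 FPKM in the libraries labelled clone replicates 1 to 4. The 11 controls ran from 31.9 to 61.9 FPKM with a median of 49.5, so that 3 clone libraries lay above every control, and the library labelled clone replicate 3 lay among them. The highest control was the library labelled EV2 replicate 3. The log2 fold change was 0.54 (standard error 0.165, 95% confidence interval 0.19 to 0.88), with an exact two-sided permutation p of 0.00586 for this gene alone and an adjusted p of 0.332 from limma over all genes. Without libraries numbered 3, the clone had 74.0 ± 3.68 FPKM (SD, n = 3) and the controls 46.5 ± 10.14 (SD, n = 9), and the log2 fold change was 0.69 (standard error 0.181, adjusted p = 0.0399 from limma).

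TNPO2 in HCT116 had 45.8, 48.0, 40.3 and 56.2 FPKM in the libraries labelled clone. The controls ran from 28.5 to 50.1 FPKM with a median of 36.8, and only clone replicate 4 lay above all of them. The highest control was again the library labelled EV2 replicate 3, and the controls not numbered 3 reached 43.2 FPKM. The log2 fold change was 0.37 (standard error 0.134, 95% confidence interval 0.09 to 0.65, adjusted p = 0.383 from limma, exact two-sided permutation p = 0.0190). Without libraries numbered 3, all 3 clone libraries lay above the 9 controls, and the log2 fold change was 0.50 (standard error 0.134, adjusted p = 0.0409 from limma). For each of these genes the exact two-sided permutation p was then 0.00909, with 220 arrangements. TNPO3 had 27.4, 26.5, 31.6 and 27.6 FPKM in the clone and 23.2 to 36.3 in the controls. Its log2 difference was -0.10 (95% confidence interval -0.35 to 0.15, adjusted p = 0.787 from limma, exact permutation p = 0.369) and -0.15 without number 3 (adjusted p = 0.545).

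With all HCT116 libraries, 0 of the 12960 genes tested passed the correction by limma (0% called), while 1342 had an unadjusted p under 0.05. The unmoderated test with unequal variances called 17 genes and none of the members (adjusted p = 0.263 for TNPO1, 0.388 for TNPO2 and 0.750 for TNPO3). Without libraries numbered 3, 2 of the 3 members were called higher, beside 3.62% of 13000 genes. The level of ASNS also differed between the HCT116 groups, with 61.4 ± 14.95 FPKM in the clone (SD, n = 4) and 168 ± 104 in the controls (SD, n = 11), and its part in the result was not tested separately from the clone. With ASNS as a covariate, the log2 fold changes were 0.26 for TNPO1 (adjusted p = 0.452), 0.25 for TNPO2 (0.434) and -0.26 for TNPO3 (0.355, all from limma). Without libraries numbered 3, ASNS had 67.7 ± 9.99 FPKM in the clone (SD, n = 3) and 157 ± 91.0 in the controls (SD, n = 9). The covariate then gave 0.35 for TNPO1 (adjusted p = 0.0910) and 0.37 for TNPO2 (0.0846), which were not called, and -0.38 for TNPO3 (0.0411, limma), which was called lower, in an alternative chosen after seeing the data in which 2698 genes were called.

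**Figure D4:**
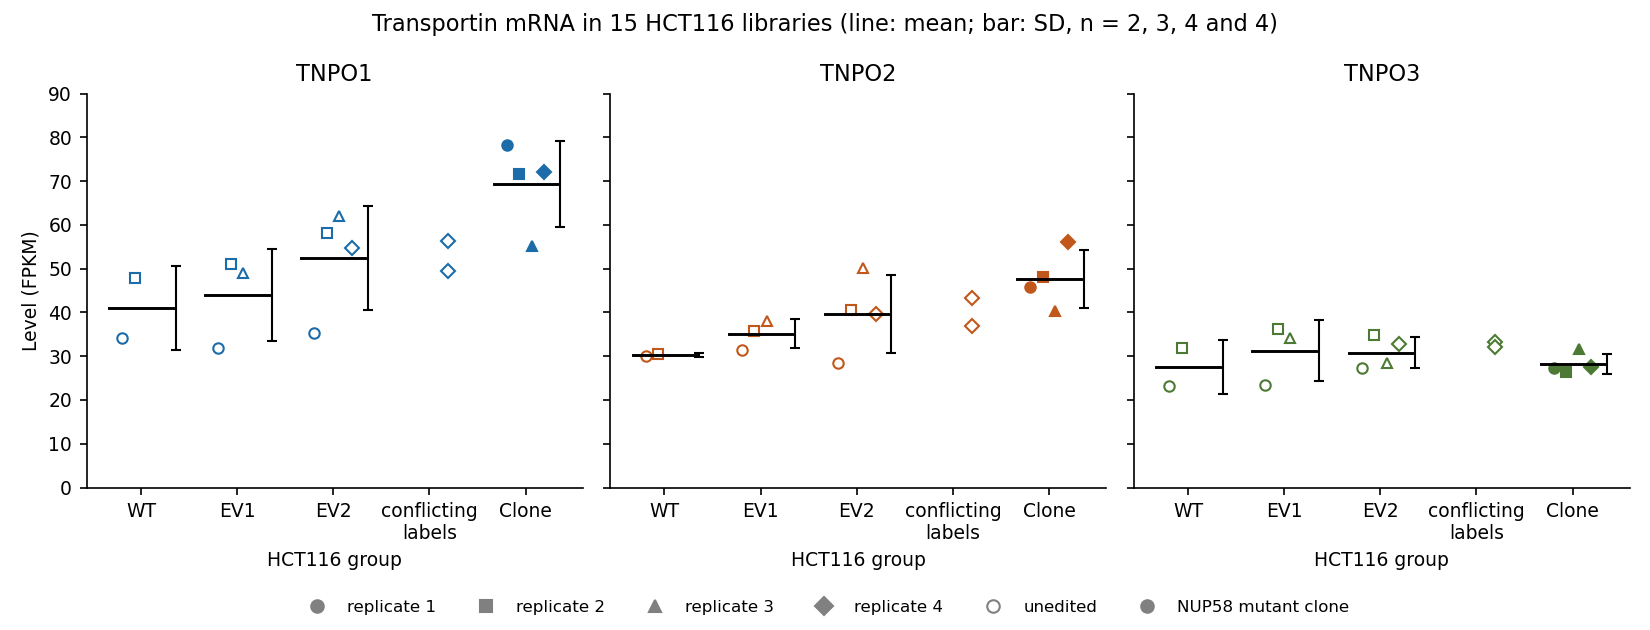
Levels (FPKM, y axis) of the transportins in the 15 HCT116 libraries by group (x axis), with open symbols for unedited and filled ones for the clone, shapes for replicate numbers, lines for means and bars for SD. The 2 libraries with conflicting labels have no mean. For TNPO1 3 of 4 clone libraries lie above every control, and the triangle of the clone, replicate 3, lies among the controls at 55.3 FPKM.

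The change in the clones was then set against the cell line. The mean change of the 6 HAP1 clones minus that of the HCT116 clone was -0.02 for TNPO1 (95% confidence interval -0.46 to 0.42), 0.11 for TNPO2 (-0.26 to 0.48) and 0.12 for TNPO3 (-0.13 to 0.37) on the log2 scale. None was called (adjusted p = 0.984, 0.859 and 0.753 from limma), beside 1.8% of the 13629 genes tested. Without the HCT116 libraries numbered 3, the differences were -0.17, -0.02 and 0.16 (adjusted p = 0.732, 0.969 and 0.533 from limma). The intervals are wide enough to hold differences close to the fold changes themselves.

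The parent lines differed in which transportin was higher. Unedited HAP1 (WT and EV) had 51.1 ± 7.38 FPKM of TNPO1, 67.9 ± 12.6 of TNPO2 and 43.2 ± 3.66 of TNPO3 (SD, n = 8). Unedited HCT116 had 48.2 ± 10.2, 36.8 ± 6.52 and 30.7 ± 4.47 (SD, n = 11). TNPO2 was higher in HAP1 by 0.86 on the log2 scale (limma, adjusted p = 6.39e-07, standard error 0.113), and the 8 HAP1 libraries lay above all 11 of HCT116. TNPO3 was higher by 0.49 (standard error 0.0868, adjusted p = 3.38e-05 from limma), again with no overlap, and both calls held without any single library. Without the HCT116 libraries numbered 3, the differences were 0.92 for TNPO2, 0.50 for TNPO3 and 0.15 for TNPO1 (adjusted p = 4.67e-07, 9.13e-05 and 0.295 from limma). With all libraries, the exact two-sided permutation p was 2.65e-05 for TNPO2 and for TNPO3, and 0.432 for TNPO1. TNPO1 differed by 0.10 (standard error 0.122, 95% confidence interval -0.15 to 0.36, adjusted p = 0.464 from limma). So 2 of 3 members were called higher in HAP1, beside 39.5% of 13538 genes, and over all genes the median difference was 0.10. Relative to that median, TNPO2 and TNPO3 remained higher and TNPO1 was at the level of the average gene.

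The ratio of TNPO1 to TNPO2 describes the same contrast within each library. It was below 1 in all 8 unedited HAP1 libraries, with a mean of 0.763 ± 0.0864 (SD, n = 8), and above 1 in all 11 unedited HCT116 libraries, with 1.31 ± 0.174 (SD, n = 11). In the clones it was 0.851 ± 0.151 in HAP1 (SD, n = 24), above 1 in 5 libraries of C2, C3 and C6, and 1.46 ± 0.183 in HCT116 (SD, n = 4). The ratio of TNPO1 to TNPO3 was 1.18 ± 0.128 in unedited HAP1 (SD, n = 8) and 1.72 ± 0.283 in its clones (SD, n = 24), and 1.57 ± 0.244 in unedited HCT116 (SD, n = 11) and 2.48 ± 0.497 in its clone (SD, n = 4). Without libraries numbered 3, the HCT116 clone had a TNPO1 to TNPO2 ratio of 1.49 ± 0.211 and a TNPO1 to TNPO3 ratio of 2.72 ± 0.121 (SD, n = 3). The 9 unedited libraries then had 1.32 ± 0.192 and 1.51 ± 0.146 (SD, n = 9). The ratios are given as a description with no test.

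**Figure D5:**
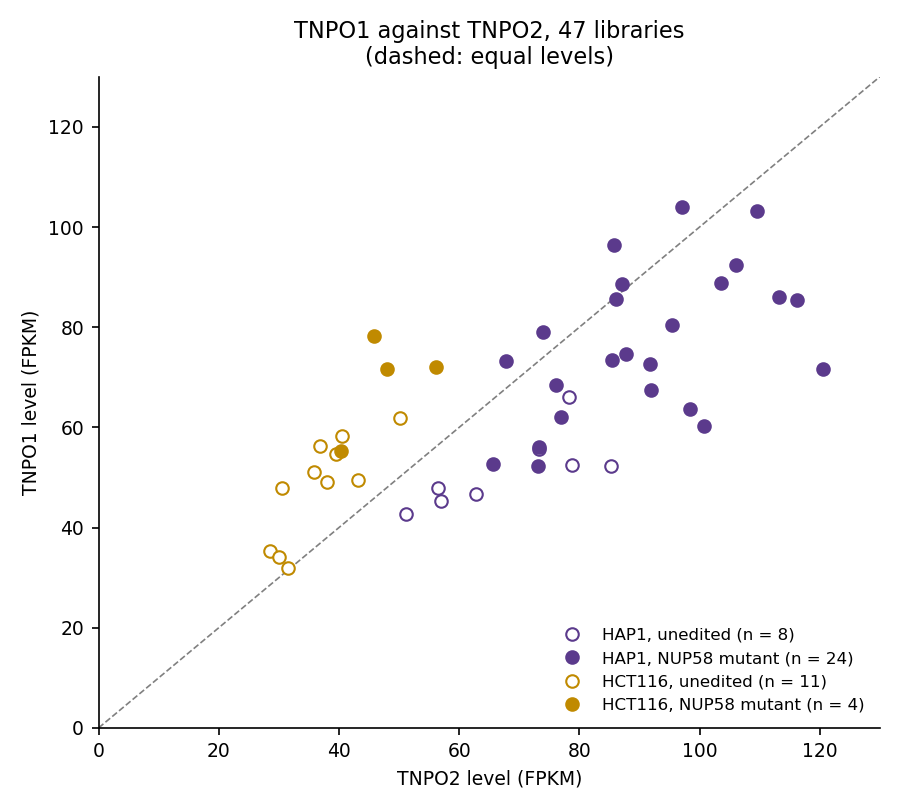
TNPO1 (y axis, FPKM) against TNPO2 (x axis, FPKM) in 47 libraries, HAP1 in purple and HCT116 in yellow, open for unedited and filled for NUP58 mutant. All 15 HCT116 libraries lie above the dashed line of equal levels, and 5 of 32 HAP1 libraries do.

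The other receptors of the family were measured for comparison. Of 17 other karyopherin β genes, 16 passed the filter on low values in HAP1 (RANBP17 did not). Over the 6 clones against WT, none of them was called higher and 1 lower, with a median log2 difference of 0.02 beside -0.02 over all tested genes, of which 6.6% were called in either direction. In lists as short as these, a count of 0 or 1 lies near that share. The called gene was XPO7, an exportin, which fell from 42.3 ± 4.27 FPKM in WT (SD, n = 4) to 35.6 ± 2.82 in the clones (SD, n = 24; log2 fold change -0.24, adjusted p = 0.0182 from limma). KPNB1 had a log2 difference of 0.10 (standard error 0.212, adjusted p = 0.855 from limma). TNPO1 and TNPO2 thus had the largest positive differences of the 19 tested genes of this family, which reached at most 0.27 among the others (XPO5, adjusted p = 0.166 from limma).

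Of 7 importin α genes, the adaptors that bind classical nuclear localization signals, 6 were tested and 1 was called. Over all tested genes 6.6% were called in either direction. KPNA4 rose from 15.1 ± 2.499 FPKM in WT (SD, n = 4) to 22.4 ± 3.35 in the clones (SD, n = 24; log2 fold change 0.54, adjusted p = 0.00150 from limma). The list had a median of 0.06, and the gene with the highest level, KPNA2, had 0.02 (adjusted p = 0.950). None of the 7 genes of the Ran cycle was called (median 0.01). RAN, the GTPase that makes import receptors release their cargo, had a log2 difference of -0.09 (adjusted p = 0.802 from limma).

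The cargoes were measured as mRNA, which does not show where their proteins were. None of the 17 genes of TNPO1 and TNPO2 cargoes was called over the 6 clones (median -0.05, range -0.25 to 0.33), beside 6.6% of all tested genes. HNRNPA1, the cargo with the highest level, had 1646 ± 198 FPKM in the clones (SD, n = 24) and 1764 ± 160 in WT (SD, n = 4; log2 difference -0.11, adjusted p = 0.590 from limma). Of 9 TNPO3 cargoes, 1 was called: RBM4, a splicing regulator with a close paralog whose reads could be split with it, rose from 98.8 ± 7.96 to 119 ± 8.58 FPKM (SD, n = 4 and 24; log2 fold change 0.26, adjusted p = 0.00672 from limma), with a list median of 0.004. SRSF3, the highest of them, had -0.13 (adjusted p = 0.629). In HCT116 with all libraries, no gene at all was called, and the medians of the 5 lists were -0.10, 0.06, -0.14, -0.10 and -0.16 in the order above. Without libraries numbered 3, where 5.92% of all genes were called in either direction, the medians were -0.20, 0.03, -0.28, -0.22 and -0.22. The calls were then XPO7, with a log2 fold change of -0.45 (limma, adjusted p = 0.0328), and SRSF6, an SR protein named after its values were seen, with -0.37 (adjusted p = 0.0267). KPNA4 had 0.52 (adjusted p = 0.0502 from limma). Between the unedited lines, 13 of 17 cargoes of TNPO1 and TNPO2 were called higher in HAP1 and 2 lower. Of 9 cargoes of TNPO3, 7 were higher and 1 lower, and of 17 other karyopherin β genes 10 higher and 1 lower. The Ran cycle had 5 of 7 higher and 0 lower, but the importin α genes had 0 of 6 higher and 1 lower. Of all 13538 genes, 39.5% were called higher and 28.5% lower.

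Over the 32 HAP1 libraries, the gene whose log2 level most resembled that of TNPO1 was KPNA4 (Pearson's r = 0.930), followed by ZNF398 (0.892), BMI1 (0.889), SMG5 (0.879) and CHTOP (0.876). Over the 15 HCT116 libraries the r was 0.874 for KPNA4 and 0.777 for SMG5, but -0.03 for ZNF398, -0.11 for BMI1 and 0.328 for CHTOP. Over the 12 libraries not numbered 3 these were 0.869, 0.857, 0.0806, -0.05 and 0.347. For TNPO2 they were ZHX1 (0.823), CRK (0.820), SLC16A6 (0.820), ZNF616 (0.798) and RNF145 (0.795), with r of 0.356 to 0.644 in HCT116. For TNPO3 they were RBM25 (0.807), ZNF616 (0.783), SERPINH1 (0.775), CS (0.767) and ZNF443 (0.755), of which CS (0.845), ZNF616 (0.805) and RBM25 (0.740) stayed close in HCT116 (0.837, 0.819 and 0.789 without number 3). TNPO2 was at place 66 of all 13180 tested genes for TNPO1 (r = 0.745 in HAP1, 0.867 in HCT116), and TNPO3 at place 867 (0.509 and 0.311). These correlations describe libraries that share lines and replicate numbers, and the median over all genes lay near 0 (-0.04 to -0.05).

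RefSeq (GRCh38.p14) lists 2 start sites each for TNPO1 and TNPO2 and 1 for TNPO3, and all 5 windows of 250 bases upstream overlap annotated exons, by 18 bases to their whole length, so their sequences are not printed. The GC content of the upstream bases was 72.0% and 45.2% for TNPO1, 60.4% and 78.0% for TNPO2 and 61.2% for TNPO3, beside a median of 58% over 35116 promoters. On either strand, GGGCGG occurred in 1 window each of TNPO1, TNPO2 and TNPO3 and in 42.6% of all promoters. CCAAT occurred in 1 window each of TNPO1 and TNPO2 (32% of all), CACGTG in 1 of TNPO2 (6.34%), CCGGAA in that of TNPO3 (14.5%) and TATAAA in none (10.7%).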

How the data were processed

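RNA of 47 samples was sequenced as read pairs, and per the labels the reads were checked with FastQC, aligned to GRCh38 with STAR and quantified with RSEM. The authors deposited FPKM for 57507 genes, and per their methods applied no further normalization after viewing the distributions. FPKM keeps no read number, so counting error is unknown, and 67.5% of the values were 0. Groups came from the sample labels, all 47 columns were mapped, and 0 library pairs were identical. The 2 HCT116 controls with conflicting labels were used only as unedited.

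Values were analysed as log2(FPKM + 1), which understates changes of low genes. For each comparison, genes averaging 1 FPKM or more entered a linear model in limma 3.58.1 (R 4.3.3, eBayes with a mean-variance trend) and adjusted by the Benjamini-Hochberg method over all tested genes, and an adjusted p under 0.05 was a call. All 3 members passed the filter in every comparison. Each clone and EV were fitted with WT (8 libraries), the mean of the 6 clones in a fit of 32 libraries, HCT116 in 15, the unedited lines in 19, and the cell line difference in 47. Single members were also compared by exact two-sided permutation tests, and correlations by 100000 permutations within lines. Positions came from GENCODE 44 (56417 of 57507 identifiers matched, 98.1%) and promoters from RefSeq, and Biopython 1.88 aligned the coding sequences. The scripts were tested on simulated data.

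The members and lists were chosen with earlier results of these data known, as were ASNS and the libraries numbered 3. Named genes were the 3 members, NUP58, ASNS, the pseudogenes, the called genes of each list (up to 3) with its gene of highest level, and the 5 genes most correlated with each member. XPO5 and SRSF6 were named after their values were seen. Same-numbered libraries of a line and WT deviated together (r above 0.1 in all 4 pairs) in 5 of 7 lines, C1 to C4 and EV, and in 24 of 28 pairs, with r from -0.365 to 0.742. Their replicate block is therefore given beside the results it changes. Alternatives were another pseudocount (0.1), no filter, TPM (a total of 1000000) or median-ratio scaling, no trend, the block, ASNS as a covariate, other controls, the unmoderated test, and leaving out each library or clone.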

Additional observations from a re-analysis of the deposited data

Results flagged for a closer look

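TNPO1 in C4 replicate 2, with 52.7 FPKM, lay apart from the other 3 libraries of that line, which had 72.6 to 74.7 FPKM. Its gap to the nearest library was 0.904 of the range of the line, above Dixon's 95% limit for 4 samples. It was the only one of 30 groups of the members marked in this way, and chance marks about 1 in 20.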

How the results depend on the processing

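All processing choices planned for a result could be run, but not every choice was applied to every result. The unmoderated test was run only for single HAP1 lines against WT and for the HCT116 clone. Against WT, the mean log2 fold change of the 6 clones lay between 0.42 and 0.62 for TNPO1 and between 0.38 and 0.58 for TNPO2 when single libraries were left out, and was no longer called without clone C6 for TNPO1 (0.49) or clone C5 for TNPO2 (0.43). For TNPO3 it lay between -0.0349 and 0.0619, and at -0.0179 without clone C5. Against EV, TNPO2 was called with ASNS as a covariate (0.40), with the replicate block (0.35) and in 2 of the 32 fits without 1 library (0.37 in both), while the 32 fits ran from 0.26 to 0.45. Among the clones, the covariate ASNS made all 3 ranges pass (0.39, 0.46 and 0.24) and the replicate block that of TNPO2 (0.44). Of the 18 pairs of clone and member, 2 were called, against 8 with ASNS, 6 with the replicate block, 4 in a single fit of all 32 libraries, 4 with EV as control, 1 with no filter, 0 in the unmoderated test and 1 to 2 without 1 WT library. The replicate block changed no other call among the results it was run for. It was not run for the unedited lines or for the difference of the clone effect between cell lines.

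TNPO1 between the unedited lines turned from 0.10 to -0.0273 under median-ratio scaling and -0.0362 with ASNS. The difference of the clone effect between cell lines turned for TNPO1 from -0.02 to 0.19 with ASNS and 0.0241 with WT and EV as control, and lay between -0.125 and 0.0876 without 1 library. For TNPO2 it turned from 0.11 to -0.0195 without the HCT116 libraries numbered 3, where the HCT116 clone itself passed for TNPO1 (0.69) and TNPO2 (0.50). With ASNS as a covariate as well, an alternative chosen after seeing the data, TNPO3 passed as lower (-0.378). Within lines, removing the means of replicate numbers (a block) moved r to 0.392 for TNPO1 with TNPO2 and to -0.629 for TNPO2 with ASNS.

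Small differences of TNPO3 from WT changed sign. In C1 it was 0.00988 as TPM, 0.0410 with median ratios, 0.0503 against EV and -0.0511 to 0.0780 without 1 library. In C3 and C4 it was -0.0159 and -0.00309 with ASNS, and -0.0339 to 0.0650 and -0.0392 to 0.0576 without 1 library. In C6 it was 0.0117 against EV and -0.0897 to 0.0155 without 1 library. For EV, TNPO3 had -0.101 to 0.00242 and TNPO1 -0.188 to 0.0176 without 1 library. None of these was called, and the cause of the changes was not tested. FPKM gives no read number, so no counting interval could be given.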
